A study of Mus musculus with 11 samples.

Results

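The genes described here are 7 of the 248 genes that were quantified by probe counting in mouse corneas under desiccating stress. They are 4 cytokines that epithelium and stroma can release, Il15, Il7, Tslp and Il6 (listed as IL15, IL7, TSLP and IL6), the related cytokine Il11 (IL11), and the receptor chains Il6ra (IL6RA) and Il10rb (IL10RB). They were chosen by name, with earlier results of the same samples known, so their differences between groups are given as a description. All 7 were found, with the gene IDs 16168 (Il15), 16196 (Il7), 53603 (Tslp), 16193 (Il6), 16156 (Il11), 16194 (Il6ra) and 16155 (Il10rb).

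All samples came from corneas of female C57BL/6 mice after 5 days of desiccating stress, in which a dry air draft and scopolamine, which blocks tear secretion, dry the eye. The study's abstract names corneal epithelial lysates as the source of RNA, while its results describe corneas. How much stroma the samples held is therefore not settled. Vehicle drops were given in 3 samples, the drug named pan in 4 and the drug named C1 in 4. Both drugs were dosed at 10 µM. pan is an agonist of the neurotrophin receptors TrkA, TrkB and TrkC, and C1 is a partial agonist that is selective for TrkC. No sample of an unstressed eye is part of the comparison, so the values show the stressed eye with and without drug only. The labels do not say how many animals gave a sample, and p-values measure the spread between these samples. One label field gives an age of 3 months for all samples. Another gives 2 to 3 months for vehicle and for pan replicates 1 to 3, but 22 to 24 months for each C1 sample and for pan replicate 4. The study's methods give 1 age range, of a few weeks, for all of its mice, far below the older label, so the labelled ages are not settled. C1 and the older age label cannot be told apart.

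Il15 is a growth and survival factor for natural killer cells and memory CD8+ T cells, and is usually shown to them on the surface of the cell that makes it, bound to its own receptor chain. Il7 maintains naive and memory T cells through a receptor that shares the common gamma chain with that of Il15. Tslp, a relative of Il7, is released by stressed epithelium and acts on dendritic cells, which then favour type 2 T cell responses. Il6 and Il11 both signal through gp130. Il6 binds Il6ra first, and Il10rb is the shared second chain of the receptors for the Il10 family, Il22 among them. In the surface of the eye, Il6 is known as an inflammatory cytokine of dry eye.

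The value of a gene in a sample is its normalized count, the number of times its probe was counted divided by a factor from housekeeping genes. Values of one gene can be compared between samples, but the levels of different genes cannot be ranked, since each probe has its own efficiency. Total counts over the 248 genes ran from 91955 to 133098 in vehicle, from 64156 to 646446 in pan and from 165828 to 525997 in C1 samples, so that the step of a single probe count was 3.25 normalized counts in the shallowest pan sample but 0.315 in the deepest, replicate 4. A count of up to 3 is within what a probe with no target can give, and the 95% intervals of single values are exact Poisson intervals that cover counting error only. As a mark of background, 8 probes for genes of liver, heart and retina were used, and the highest of them lay between 5.80 and 36.9 normalized counts in the 11 samples. Of the 248 genes, 130 were above that probe in every sample. None of the 3 corneal epithelial keratins looked for (Krt12, Krt5 and Krt14) is among the genes measured, so the epithelial content of the samples could not be checked against its markers.

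Il15, Il6ra and Il10rb were above the highest of these 8 probes in 11 of 11 samples. Il11 was above it in 8, Tslp in 5, Il6 in 2 and Il7 in 1. Among the 7 genes, only Il15 had groups that did not overlap: it was lowest with pan, intermediate with vehicle and highest with C1.

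**Figure D1:**
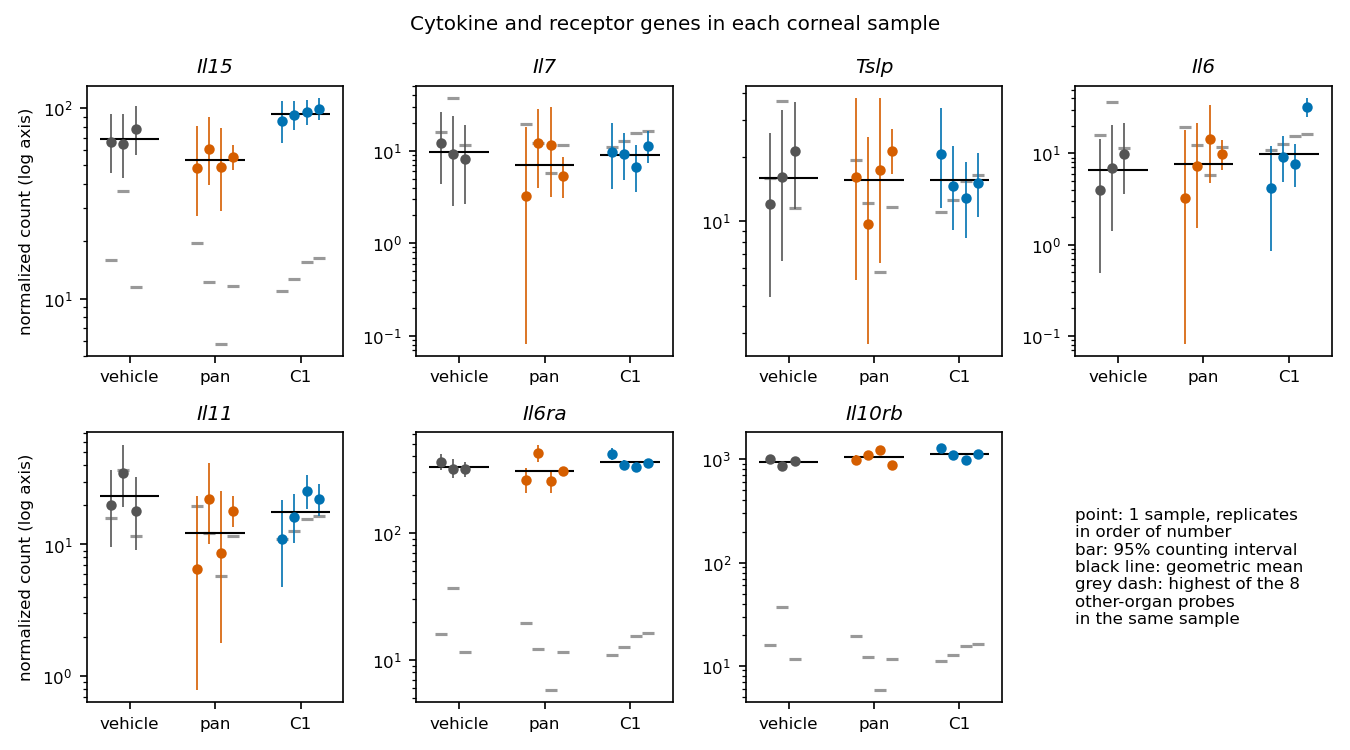
Normalized counts (log axis) of the 7 genes in each of the 3 vehicle, 4 pan and 4 C1 samples. Points are samples with their 95% counting interval, black lines are geometric means, and grey dashes are the highest of the 8 liver, heart and retina probes in that sample. Il15, Il6ra and Il10rb lie above the dashes in all samples, and Il15 alone has 3 groups that do not overlap.

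In vehicle samples, Il15 was counted at 66.1, 64.5 and 77.3 normalized counts, from 33, 28 and 47 probe counts. With pan it was at 48.7, 61.0, 49.3 and 55.4, from 15, 25, 17 and 176 probe counts. With C1 it was at 85.3, 91.9, 94.9 and 98.9, from 62, 131, 184 and 229 probe counts. Every pan sample was below every vehicle sample, and every C1 sample was above both other groups. The means were 69.3 ± 6.97 (SD, n = 3) in the vehicle, 53.6 ± 5.80 (SD, n = 4) in the pan and 92.8 ± 5.76 (SD, n = 4) in the C1 samples.

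The log2 fold change of Il15 was -0.37 (SE 0.21, 95% interval -0.86 to 0.11) for pan against vehicle. For C1 against vehicle it was 0.42 (SE 0.13, 95% interval 0.11 to 0.73). Between the drugs, at the same dose and time, C1 was 1.74-fold above pan, a log2 fold change of 0.80 (SE 0.17, 95% interval 0.41 to 1.18). With limma and Benjamini-Hochberg adjustment over all 248 genes, the adjusted p of these differences was 0.517, 0.370 and 0.150, and none was called at the threshold of 0.05. Il15 is one of the 8.47% of all genes for which every pan sample lay below every vehicle sample, of the 6.05% for which every C1 sample lay above every vehicle sample, and of the 7.66% for which every C1 sample lay above every pan sample. In the opposite directions the shares of all genes were 2.42%, 4.03% and 0.403%, and no member was among them. When the genes with a mean log2 value under 5 were left out of the fit, 131 genes were tested and Il15 was the 1 gene called in C1 against pan, or 0.763% of them (adjusted p = 0.0313 with limma).

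The order of the Il15 values also followed the total count of most samples. When all 11 samples were sorted by total count, Il15 was higher in the next sample at 8 of 10 steps, a number that 2 of the 248 genes (0.806%), Il15 included, reached. Tslp and Il6 were each higher at 5 of these 10 steps, and Il7, Il11, Il6ra and Il10rb at 4. The sample farthest from this order for Il15 was pan replicate 4, which had the highest total of all samples (646446) and an Il15 value of 55.4 (95% interval 47.5 to 64.2). C1 replicate 4, with a total of 525997 and the same age label, had 98.9 (95% interval 86.5 to 112.6).

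The effect of the total as a covariate depended on that 1 library. With log2 total count as a covariate in a fit of all 11 samples, the log2 fold change of Il15 was -0.39 for pan and 0.33 for C1 against vehicle, and 0.72 for C1 against pan. With the same covariate and without pan replicate 4, it was -0.30, 0.13 (SE 0.26) and 0.43 (SE 0.31), with adjusted p values of 0.424, 0.919 and 0.963 by limma. Without pan replicate 4 and without the covariate, C1 against pan stayed between the 0.75 and 0.86 found over all single samples left out. With the age label as a term, which rests on pan replicate 4 alone since no other group holds both ages, the 3 log2 fold changes of Il15 were -0.39 (SE 0.17), 0.35 (SE 0.29) and 0.74 (SE 0.23), with adjusted p values of 0.210, 0.823 and 0.993 by limma.

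**Figure D2:**
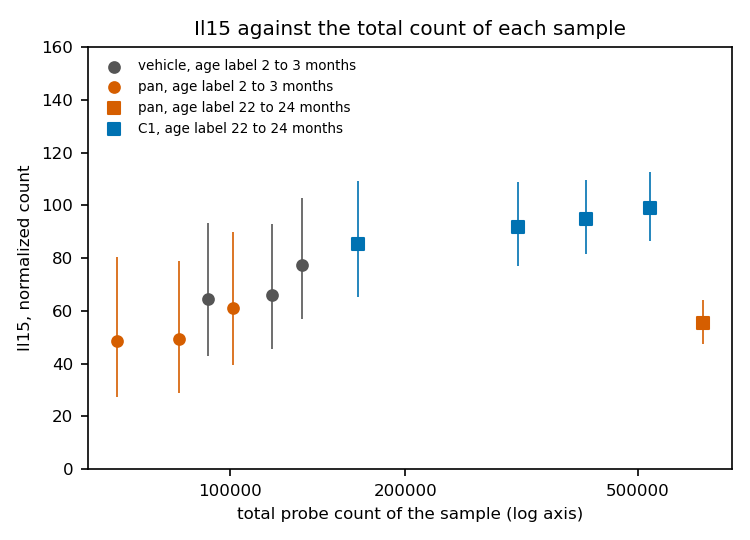
Il15 in normalized counts against the total probe count of each sample (log axis), with 95% counting intervals. Circles are samples with an age label of 2 to 3 months and squares those of 22 to 24 months. Il15 is higher at 8 of 10 steps of increasing total, while pan replicate 4, at the highest total, has 55.4 normalized counts.

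Macrophages and fibroblasts can also make Il15, and fewer cells of a type and less RNA per cell cannot be told apart in whole samples. How much stroma the samples held is not settled, since the study names both corneas and corneal epithelial lysates. All 7 macrophage markers had a lower mean log2 value with pan than with vehicle (median log2 fold change -0.49), all 7 were higher with C1 than with vehicle (0.27) and all 7 were higher with C1 than with pan (0.79). None of the 7 was called in any comparison. Their summed level was 358 to 444 normalized counts in vehicle, 212 to 380 in pan and 395 to 545 in C1 samples, and no marker was at or under 3 counts in every sample of a group. C1qa, a subunit of complement C1q that tissue macrophages make, was at 67.1 ± 11.2 with C1 and 39.6 ± 8.26 with pan (SD, n = 4 each), without overlap.

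The 4 fibroblast markers (Mmp3, Tcf4, Tgfb3 and Twist2) summed to 751 to 985 in vehicle, 646 to 764 in pan and 763 to 1384 in C1 samples, with median log2 fold changes of -0.19, 0.34 and 0.67 in the same 3 comparisons, and none was called. The 4 T cell markers summed to 32.3 to 39.5, 16.2 to 24.4 and 24.5 to 36.7. Of these 4, Ifng was called lower with pan than with vehicle (log2 fold change -2.40, limma adjusted p = 0.0025), and none was above the highest of the 8 background probes in every sample of a group. Ifng was at 2.93 ± 0.36 with pan (SD, n = 4), and had 1 to 22 probe counts over all samples. In pan replicates 1 to 3, 3 probe counts came to 9.74, 7.32 and 8.69 normalized counts. The 8 background probes themselves had median log2 fold changes of -0.76, -0.23 and 0.67, and 1 of them, the liver lectin Mbl2, was called lower with pan than with vehicle (limma adjusted p = 0.0305). Mbl2 had the same mean and SD with pan as Ifng. The part of these cell types and of the background in the Il15 values was not tested.

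The genes whose course over the 11 samples was closest to that of Il15 were Tcf4, a transcription factor, Oasl1, an interferon-induced gene, and Tlr4, the receptor for bacterial lipopolysaccharide. Closeness was measured by the root mean square difference of log2 values, each gene first centred on its own mean. The minimum of 10 probe counts in every sample was applied to Il15, and not to the genes compared with it. The difference was 0.21 for Tcf4, 0.22 for Oasl1 and 0.25 for Tlr4, against a median of 0.52 over the genes compared. That median includes genes with few probe counts, so it is no measure of well-counted genes alone.

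The other 2 lymphoid cytokines were near background. Il7 was at 12.0, 9.22 and 8.22 normalized counts in vehicle samples, from 6, 4 and 5 probe counts. With pan it was at 3.25, 12.2, 11.6 and 5.35, from 1, 5, 4 and 17 probe counts, and with C1 at 9.63, 9.11, 6.71 and 11.2, from 7, 13, 13 and 26. The 3 groups overlapped throughout, and only in pan replicate 3 did Il7 lie above the highest background probe. The 95% intervals of the log2 fold change ran from -1.58 to 0.66 for pan and from -0.63 to 0.42 for C1 against vehicle, and from -0.62 to 1.33 for C1 against pan.

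Tslp was at 12.0, 16.1 and 21.4 normalized counts in vehicle samples, from 6, 7 and 13 probe counts. With pan it was at 16.2, 9.76, 17.4 and 21.4, from 5, 4, 6 and 68 probe counts. With C1 it was at 20.6, 14.7, 12.9 and 15.1, from 15, 21, 25 and 35 probe counts. The group means lay within 1 normalized count of each other, at 16.5 ± 4.70 (SD, n = 3), 16.2 ± 4.83 and 15.8 ± 3.34 (SD, n = 4 each). Tslp had log2 fold changes of -0.04 (SE 0.34) for pan and -0.04 (SE 0.25) for C1 against vehicle, with 95% intervals of -0.82 to 0.73 and -0.63 to 0.55. Between the drugs the 95% interval ran from -0.63 to 0.63.

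The gp130 cytokines, Il6 and Il11, varied widely within groups. Il6 was at 4.0, 6.91 and 9.87 normalized counts in vehicle samples, from 2, 3 and 6 probe counts. With pan it was at 3.25, 7.32, 14.5 and 9.75, from 1, 3, 5 and 31 probe counts. With C1 it was at 4.13, 9.11, 7.74 and 32.0, from 3, 13, 15 and 74 probe counts. One sample stood apart: C1 replicate 4, at 32.0 normalized counts (95% interval 25.1 to 40.1), was above all other samples, none of which passed 14.5. In 5 of 11 samples Il6 was at or under 3 probe counts. The log2 fold change for C1 against vehicle was 0.60 (SE 0.69, 95% interval -1.03 to 2.23) and 0.03 without C1 replicate 4. For pan against vehicle it was 0.23 (SE 0.53), and for C1 against pan 0.37 (SE 0.65), which turned to -0.20 without C1 replicate 4.

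Il11 was at 20.0, 34.6 and 18.1 normalized counts in vehicle samples, from 10, 15 and 11 probe counts. With pan it was at 6.49, 22.0, 8.69 and 17.9, from 2, 9, 3 and 57 probe counts. With C1 it was at 11.01, 16.1, 25.3 and 22.0, from 8, 23, 49 and 51 probe counts. The highest pan sample passed the 2 lower vehicle samples, so the groups overlapped. The log2 fold change was -0.93 (SE 0.48, 95% interval -2.03 to 0.18, limma adjusted p = 0.487) for pan and -0.39 (SE 0.36, 95% interval -1.23 to 0.45) for C1 against vehicle. The 2 lowest pan values rest on 2 and 3 probe counts, within the range of a probe with no target.

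Both receptor chains were measured well above background. Il6ra was at 360, 320 and 316 normalized counts in vehicle samples, at 260, 425, 255 and 304 with pan, and at 418, 339, 329 and 357 with C1. Each value rests on 80 to 965 probe counts. pan replicate 2 was the highest sample of all and pan replicate 3 the lowest, so the pan group spanned both others. The means were 332 ± 24.5 (SD, n = 3), 311 ± 79.0 and 361 ± 40.0 (SD, n = 4 each), and the 95% intervals of the log2 fold change were -0.71 to 0.46 for pan, -0.21 to 0.45 for C1 and -0.25 to 0.73 for C1 against pan.

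Il10rb was at 1001, 869 and 970 normalized counts in vehicle samples, at 993, 1108, 1237 and 876 with pan, and at 1301, 1099, 988 and 1118 with C1, each from 306 to 2783 probe counts. Of the 7 genes it had the smallest range over the 11 samples, 1.5-fold from the lowest to the highest, against 1.67-fold for Il6ra, 2.03-fold for Il15 and 9.85-fold for Il6. The groups overlapped. The log2 fold change was 0.15 (SE 0.22, 95% interval -0.36 to 0.65) for pan and 0.25 (SE 0.14, 95% interval -0.09 to 0.58) for C1 against vehicle, and 0.10 (SE 0.19, 95% interval -0.33 to 0.53) for C1 against pan.

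Among the closest courses to Il6ra were those of Alox12, a lipoxygenase, and Tgfb2, a growth factor, with root mean square differences of 0.12 and 0.14. For Il10rb they were Mapk8, a stress-activated kinase, at 0.075, Hmgn1, a chromatin protein, at 0.12 and Hif1a, the oxygen-regulated transcription factor, at 0.13.

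**Figure D3:**
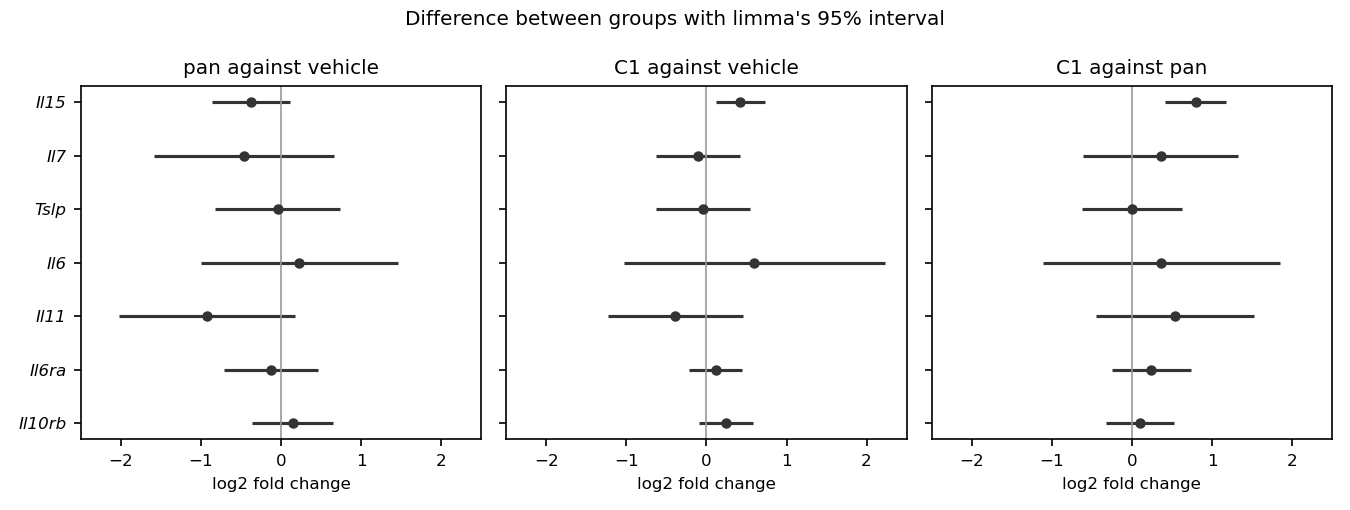
Log2 fold change of each of the 7 genes in the 3 comparisons, with limma's 95% interval. The interval of Il15 lies above 0 in C1 against vehicle (0.11 to 0.73) and in C1 against pan (0.41 to 1.18), before any adjustment over genes, and all others span 0.

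Over all 3 comparisons, 0 of the 7 genes were called by limma at an adjusted p of 0.05, where the shares of all genes called were 2.02% in pan against vehicle, 0% in C1 against vehicle and 0.403% in C1 against pan. At an unadjusted p under 0.05, 0, 1 and 1 of the 7 and 31, 26 and 38 of all 248 genes passed, the member being Il15 in both cases. The adjusted p of the 7 ranged from 0.487 to 0.945, from 0.370 to 0.939 and from 0.150 to 0.997. Against vehicle, the median of their log2 fold changes was -0.13 for pan, where that of all genes was -0.20. For C1 it was 0.12, where that of all genes was -0.02. Against pan, all 7 were higher with C1, with a median of 0.36, and the median of all genes was 0.23. Tslp was higher by 0.002 only. All 8 background probes were also higher with C1 than with pan, with a median of 0.67. The 2 comparisons with vehicle share the same 3 vehicle samples.

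The genes that carry the signals of these receptors were described by the same counts. Of 13 genes of gp130 signalling, among them Cebpb, Hras1, Mapk3 and Shc1, all were above the background probes in every sample and none was called in any comparison. With pan, 4 were higher and 9 lower than with vehicle, with a median log2 fold change of -0.10. With C1, 7 were higher and 6 lower (median 0.02), and against pan 10 were higher and 3 lower (median 0.16). Cebpb, a transcription factor that Il6 signalling engages, was at 684 ± 82.4 (SD, n = 4) in C1 and 544 ± 66.8 (SD, n = 3) in vehicle samples. Every C1 sample was above every vehicle sample (log2 fold change 0.33, SE 0.15, limma adjusted p = 0.452). With log2 total count as a covariate and without pan replicate 4 this value was -0.073. Hras1, a small GTPase between the receptor and the kinase cascade, was at 201 ± 12.1 with C1 and 224 ± 12.3 with vehicle, every C1 sample below (log2 fold change -0.16, SE 0.12). Mapk3, the kinase Erk1, was at 2465 ± 697 with pan and 3338 ± 189 with vehicle (log2 fold change -0.48, SE 0.28), with overlap.

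Of the cytokines that share the common gamma chain with Il15 and Il7, the 4 others measured (Il2, Il4, Il9 and Il21) had at most 23 probe counts in any sample, and none was above the background probes in every sample of a group. None was called. Of 8 genes of the type 2 response, to which Tslp is known to lead, none was called either. Ccl22, a chemokine for type 2 T cells made by dendritic cells and macrophages, was at 10.5 ± 5.0 (SD, n = 4) in pan and 18.2 ± 3.31 (SD, n = 3) in vehicle samples, every pan sample below (log2 fold change -0.99, SE 0.52). It had 1 to 52 probe counts, and such a position was found for 8.47% of all genes. None of the 8 was above the background probes in every pan or every vehicle sample. The background probes had a median log2 fold change of -0.76 in pan against vehicle. Il13 and Il5, the type 2 cytokines, had at most 15 and 17 probe counts.

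The 3 other genes of the Il10 family, Il10, Il22 and Il22ra2, had at most 27 probe counts, and none was called. Il22, a ligand whose receptor uses Il10rb, was at 2.55 ± 1.94 with C1, 3.07 ± 1.49 with pan and 7.92 ± 4.59 with vehicle, from 1 to 10 probe counts. Every C1 sample was below every vehicle sample, while the highest of the 8 background probes was at 11.5 or more in each vehicle sample.

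Among 6 other cytokines that epithelium can release, none was called. Il1a, an alarmin stored in epithelial cells, was at 888 ± 442 with pan and 501 ± 83.5 with C1 (SD, n = 4 each), against 339 ± 67.4 with vehicle (SD, n = 3). Every pan sample was above every vehicle sample (log2 fold change 1.26, SE 0.42, limma adjusted p = 0.239), which placed Il1a with pan on the other side of vehicle from Il15. The study, with its own analysis in ROSALIND, reported Il1a as significantly raised with pan. Il1a passed the threshold with log2 total count as a covariate (1.35, adjusted p = 0.0418 by limma) and with the age label as a term (1.51, adjusted p = 0.0461 by limma). With that covariate and without pan replicate 4, no gene passed in pan against vehicle, Il1a included. The age term rests on pan replicate 4 alone.

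**Figure D4:**
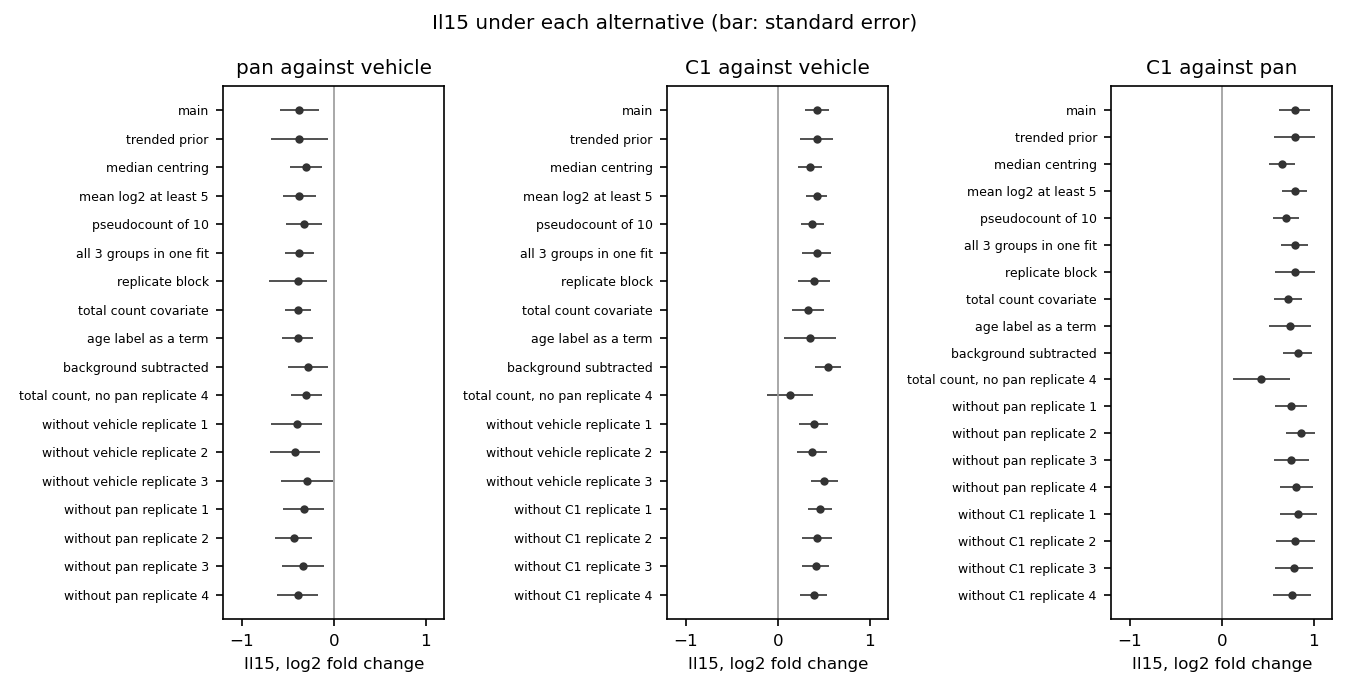
Log2 fold change of Il15 in each comparison under each alternative setting, with its standard error. All values keep their sign, and the value nearest to 0 in C1 against vehicle (0.13) and in C1 against pan (0.43) is that with log2 total count as a covariate and without pan replicate 4.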

How the data were processed

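Per the labels and the study's methods, RNA of mouse corneas was counted on the NanoString nCounter platform with the mouse Inflammation panel. The authors scaled each sample's counts in ROSALIND by its geometric mean over 6 housekeeping probes. They deposited log2 normalized counts of 248 genes in 2 tables, one per drug, each with the vehicle samples. The vehicle values were identical in both (largest difference 0), so all 11 samples were analysed together. The housekeeping genes are not among the 248, so the scaling was taken as given. The authors kept only samples that passed their quality control. The deposited tables also hold the authors' mean signal, log2 fold changes and p-values of their comparisons, which were not used.

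Normalized counts were whole multiples of 1 step per sample (tolerance 0.01), which gave the probe counts behind each value. Groups were compared on the deposited log2 values with no covariate or filter, using lmFit and eBayes of limma 3.58.1 (R 4.3.3), and p-values were adjusted over 248 genes by the Benjamini-Hochberg method. Intervals of single values are exact Poisson intervals at 95%. Summaries used Python 3.11.15, numpy 2.4.6, pandas 2.3.3, scipy 1.17.1 and matplotlib 3.10.9. Simulated tables with known changes were used to test the fit.

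The 7 genes and the gene lists were chosen with earlier results of these data known. From each list, the 2 genes with the smallest p in each comparison were taken as those to name, and the 3 closest genes for members with at least 10 counts in all samples, of which 1 is not reported here. Other genes of these lists were named after their values were seen. Gene symbols were matched by gene ID to RefSeq for 247 of the 248 genes. The alternatives were a mean-dependent prior variance, centring on the median, a filter at a mean log2 value of 5, a pseudocount of 10, 1 fit of all groups, the replicate number as a block, log2 total count or the age label as a covariate, an added log2 fold change threshold of 1.2, and leaving out each sample. The subtraction of the mean of 8 liver, heart and retina probes (floor 1 normalized count) and the total count covariate without pan replicate 4 were chosen after seeing the data. The tables name no genome build, and no coordinates are given.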

Additional observations from a re-analysis of the deposited data

Results flagged for a closer look

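Il15 was the 1 gene of the 7 whose samples all lay below the vehicle samples with one drug and all above them with the other. Its log2 fold change against the same vehicle samples was -0.37 with pan, where 4 of 4 samples were below every vehicle sample, and 0.42 with C1, where 4 of 4 were above. Of all genes, 8.47% had every pan sample below every vehicle sample and 6.05% had every C1 sample above. The share with both was not counted. Every C1 total (165828 or more) was also above every vehicle total (133098 or less). The difference itself, C1 against pan, was 0.80 (SE 0.17) with an adjusted p of 0.150 by limma over 248 genes, so it did not pass the threshold, and it was 0.43 (SE 0.31) with log2 total count as a covariate and without pan replicate 4. No sample of the 7 genes in the 14 groups of 4 samples stood far enough from its group to pass Dixon's 95% critical value.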

How the results depend on the processing

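Il7, Tslp, Il6 and Il11 had fewer than 10 probe counts in several samples, and of these Il7, Tslp and Il6 were also not above the highest other-organ probe in some C1 samples with more counts. Il15 and Il6ra kept the sign of their log2 fold change under all alternatives run in the 3 comparisons, as did Il11 and Il10rb against vehicle. The size moved, however. In C1 against vehicle, Il11 ranged from -1.48 (total count covariate without pan replicate 4) to -0.10 (without vehicle replicate 2). Il10rb ranged there from 0.18 to 0.59, the highest with the age label. Il10rb turned to -0.04 in C1 against pan with median centring, Il11 in C1 against pan with the age label and with the total count covariate without pan replicate 4 (-0.71), and Il7, Tslp and Il6 changed sign under at least 1 alternative in each comparison. After subtraction of the other-organ mean, Il7 was 0.91 (SE 0.91) and Il6 1.29 (SE 0.77) in pan against vehicle. The causes were not tested.

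The genes called were 5 in pan against vehicle. They were 1 with the filter at a mean log2 value of 5, 8 with log2 total count as a covariate, 9 with the age label as a term, 3 after subtraction of the other-organ mean, 0 with the total count covariate without pan replicate 4, and 1 to 7 with a sample left out. Instead of 0 in C1 against vehicle, 2 were called with a mean-dependent prior variance and 1 with the filter. Leaving out any sample gave 0. Instead of 1 in C1 against pan, 0 were called with a mean-dependent prior variance, median centring, the pseudocount, 1 fit of all groups, the total count covariate with or without pan replicate 4, the age label and the subtraction, and 0 to 1 with a sample left out. With the filter, the 1 gene called in C1 against pan was Il15 (0.763% of 131 genes), and 0 of the 7 genes were called otherwise in any comparison. The replicate numbers were not treated as pairs, since same-numbered samples did not all deviate together (correlations of -0.05 to 0.57). Numbers 1 and 4 had correlations of 0.51 and 0.57 in C1 against pan. Whether a number marks shared animals, days or lanes is not settled by these values. With the replicate block 5, 0 and 1 genes and 0 of the 7 were called.

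Named genes that reversed with the age label were Il22ra2 in C1 against vehicle (-0.66) and, in C1 against pan, Il22ra2 (-0.14), Il1a (0.043), Mapk3 (-0.050) and Shc1 (-0.027). After the subtraction they were Il21 with pan against vehicle (0.50) and, in C1 against pan, Il10 (-0.26), Il2 (-0.47) and Il21 (-0.48). With the total count covariate without pan replicate 4 they were Cebpb (-0.073) and Il4 (-0.22) in C1 against vehicle and Ccl22 (-0.18), Il2 (-0.033), Il21 (-0.77) and Shc1 (-0.17) in C1 against pan. With a sample left out, Il9 ranged from -0.20 (without vehicle replicate 1) to 0.90 in pan against vehicle, and Il4 from -0.25 (without vehicle replicate 3) to 0.69 in C1 against vehicle, with -0.0030 without vehicle replicate 2. Il4 in C1 against vehicle was -0.0019 with the pseudocount.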
